A study of Mus musculus with 11 samples.

Results

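Targets and regulators of the YAP-TEAD axis, 9 of the 23284 genes listed in each library, were followed in RNA-seq libraries of mouse embryonic stem cells (ESCs). They were chosen by symbol: the transcriptional coactivators Yap1 and Wwtr1 (which encodes TAZ), the DNA-binding partner Tead1, and the target genes Cyr61, Ctgf, Ankrd1, Axl, Amotl2 and Lats2. One value entered that choice, the fall of Cyr61 after α-amanitin in cells without Tet enzymes, so the 4 h against 0 h values of Tet-deficient cells are given below as a description, without a test. The levels of Cyr61 in those cells also enter its genotype differences, which are given without a p-value, and nothing is read from its calls there. All 9 genes had a mean level above 1 scaled TPM in the ribodepleted libraries and could be tested there. Ankrd1 passed that filter only through the WT groups (means of 1.85 and 1.32), since its TKO means were 0.840 and 0.675.

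YAP and TAZ are coactivators without a DNA-binding domain of their own. When the Hippo kinases (MST1/2 and LATS1/2) are active, they phosphorylate YAP and TAZ, which are then held in the cytoplasm or degraded. When the kinases are inactive, for example in spread cells under mechanical tension, YAP and TAZ enter the nucleus and bind TEAD factors at target genes such as Cyr61 and Ctgf. Several targets act back on the pathway, among them the kinase gene Lats2 and the angiomotin-family gene Amotl2, whose products restrain YAP. In the early mouse embryo, TEAD4 and YAP are known for specifying trophectoderm, and Cyr61 and Ctgf are known as fast-responding genes with short-lived mRNAs.

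The study compared wild-type (WT) ESCs with ESCs lacking the dioxygenases Tet1, Tet2 and Tet3 (triple knockout, TKO), to ask whether loss of these enzymes alters RNA stability. Both genotypes were grown on gelatin in serum with leukemia inhibitory factor, a cytokine that keeps ESCs undifferentiated. Cells were sampled without treatment (0 h) or after 4 h in 10 µg/ml α-amanitin, a mushroom toxin that blocks RNA polymerase II. Each of these groups (WT 0 h, WT 4 h, TKO 0 h, TKO 4 h) has 2 libraries of total RNA depleted of ribosomal RNA. The duplicates are biological according to the study's figure legend. No ribodepleted group was kept for 4 h without the drug, so drug and time in culture cannot be told apart. A further group held 3 polyA RNA libraries of WT cells. The number of TKO clones used is not given in the sources used here. TPM is a length-corrected share of a library's transcripts. Here it was divided by a size factor per library ("scaled TPM"), so that a loss shared by all transcripts after amanitin would not be visible.

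The ribodepleted libraries held between 25507874 and 29781366 reads assigned to genes, as recovered from the TPM steps, and the polyA libraries between 72639837 and 82129168. Among the ribodepleted pairs, the TKO 4 h replicates differed most from each other (chi-square per degree of freedom 7.40) and the TKO 0 h replicates least (1.53). In TKO cells at 0 h, Tet1 averaged 30.1 scaled TPM against 134 in WT and Tet2 7.45 against 51.8, whereas Tet3 averaged 1.45 in both. Which exons were deleted is not given in the sources used here, so the Tet3 level does not check the label. The ESC markers Pou5f1, Sox2, Nanog, Esrrb, Zfp42 and Klf4 were present in every library, with a summed level of 1491 to 2241 TPM, as deposited, in the ribodepleted libraries.

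In the genome build NCBIM37 (mm9), which the authors also used, Cyr61 is a compact gene of 3.0 kb on the minus strand of chromosome 3 (145309935 to 145312949) and Ctgf one of 3.2 kb on the plus strand of chromosome 10 (24315248 to 24318489). Amotl2 spans 16.7 kb on chromosome 9 (102619002 to 102635748) and Ankrd1 7.9 kb on chromosome 19 (36186455 to 36194334). The regulators are long genes. Yap1 covers 72.6 kb on chromosome 9 (7931999 to 8004596), Wwtr1 120.3 kb on chromosome 3 (57259571 to 57379832), Lats2 116.3 kb on chromosome 14 (58260914 to 58377225) and Tead1 227.5 kb on chromosome 7 (119822832 to 120050319). Axl lies on the same chromosome as Tead1 (26542292 to 26573724, 31.4 kb). In the GENCODE vM1 annotation, exons of Lats2 overlap exons of Xpo4 on the same strand, and exons of Ctgf and Yap1 overlap a noncoding transcript on the opposite strand, so reads in these stretches cannot be assigned with certainty.

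TEAD factors recognise the sequence GGAATG. The 250 bases before the transcription start were available from RefSeq (build GRCm38.p6) for 7 of the 9 genes (all but Ctgf and Tead1), and 6 of these 7 hold GGAATG on one strand or the other: Cyr61, Amotl2, Axl, Ankrd1, Yap1 and Wwtr1, but not Lats2. Of all RefSeq genes with such a window, 14.36% hold it. The AP-1 motif TGANTCA is held by 7.82% of all these genes, and the CArG box bound by SRF by 1.62%. Neither is in the windows of the 7 genes, and at shares this low nothing is read from that absence. The upstream sequences of 4 genes are shown because their values differed in kind. Cyr61 was called lower in WT after amanitin, Amotl2 and Axl were called higher in TKO, and Ankrd1 had a lower level in TKO. GGAATG, or CATTCC where it lies on the other strand, is in capitals, and each sequence runs 5′ to 3′ on the strand of its gene. It starts 103 bases before the start site in Cyr61, 65 bases before it in Amotl2 and 233 bases before it in Axl. Ankrd1 has a pair of matches, 210 and 123 bases before its start. A match is a description of the letters only.
Cyr61, chr3:145649986-145650235, minus strand: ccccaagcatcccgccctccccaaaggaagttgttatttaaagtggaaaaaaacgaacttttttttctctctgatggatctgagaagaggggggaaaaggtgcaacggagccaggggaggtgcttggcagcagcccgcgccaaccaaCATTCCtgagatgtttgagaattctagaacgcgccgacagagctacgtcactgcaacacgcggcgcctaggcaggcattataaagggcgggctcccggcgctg
Amotl2, chr9:102717554-102717803, plus strand: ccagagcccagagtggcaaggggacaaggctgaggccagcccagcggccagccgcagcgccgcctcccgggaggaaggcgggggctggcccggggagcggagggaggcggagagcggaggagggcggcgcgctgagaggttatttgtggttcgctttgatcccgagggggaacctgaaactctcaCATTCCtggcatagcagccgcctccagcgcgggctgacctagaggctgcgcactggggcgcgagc
Axl, chr7:25788734-25788983, minus strand: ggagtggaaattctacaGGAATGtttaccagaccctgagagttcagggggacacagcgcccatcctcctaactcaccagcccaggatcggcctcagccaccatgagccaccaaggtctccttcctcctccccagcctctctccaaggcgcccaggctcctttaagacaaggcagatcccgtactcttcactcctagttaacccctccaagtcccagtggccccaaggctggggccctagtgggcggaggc
Ankrd1, chr19:36119845-36120094, minus strand: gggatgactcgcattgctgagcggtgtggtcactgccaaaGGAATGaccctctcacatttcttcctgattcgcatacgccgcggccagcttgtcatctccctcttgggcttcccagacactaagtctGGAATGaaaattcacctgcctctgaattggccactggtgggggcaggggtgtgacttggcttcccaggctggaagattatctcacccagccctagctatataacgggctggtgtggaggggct

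The first comparison asked what 4 h of blocked transcription did to these genes in WT cells. The secreted matricellular proteins encoded by Cyr61 and Ctgf, which are the most widely used readouts of YAP activity, had the largest falls, to 47.7% and 53.6% of their 0 h level. Amotl2 was at 71.6%, short of the fold limit. The coactivator and TEAD genes stayed closer to their 0 h level, at 115.2% for Yap1, 107.8% for Wwtr1 and 95.3% for Tead1. A gene was called when its adjusted p was under 0.05 over all 12467 genes tested and it differed by more than 1.5-fold in log2(scaled TPM + 1) (limma, Benjamini-Hochberg adjustment). By that rule 2 of the 9 genes were lower and 0 higher, where 2.01% of all tested genes were called lower and 0.0882% higher.

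Cyr61 stood at 28.2 and 37.7 scaled TPM in the WT 0 h libraries and at 15.2 and 16.2 in the WT 4 h libraries. Both treated libraries lay below both untreated ones, as for 32.5% of all tested genes (40.5% lay wholly above), although the untreated pair was itself spread. The log2 change was -1.01 ± 0.12 (SE, n = 2 per group; limma adjusted p = 0.00341). Ctgf was at 39.5 and 51.4 before treatment and 22.7 and 26.0 after 4 h, again without overlap, with a log2 change of -0.86 ± 0.13 (limma adjusted p = 0.00533).

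Amotl2, whose product binds YAP and keeps it at cell junctions, was at 39.4 and 40.8 scaled TPM before treatment and 27.9 and 29.5 after 4 h. Its change of -0.47 ± 0.06 passed the limma test (adjusted p = 0.00373) without reaching 1.5-fold. Without size factors it was -0.62 (limma adjusted p = 0.00182) and called, which made 3 genes called. At that setting 585 of all 12467 tested genes were called lower and 4 higher. Yap1 was at 88.3 and 89.9 before treatment and 102.8 and 102.5 after 4 h, a difference of 0.20 ± 0.04 on the log2 scale (limma adjusted p = 0.00874) that is also below the fold limit. An adjusted p under 0.05 at any fold was reached by 37.7% of all tested genes in this contrast, and the median log2 change of all genes was 0.03. The Yap1 value depended on the scaling. Without size factors, which put the all-gene median at -0.11, it was 0.04 (limma adjusted p = 0.485), and with quantile normalisation 0.09 (0.0851). Without WT 0 h replicate 1 its limma adjusted p was 0.0538, and without WT 4 h replicate 1 it was 0.0575.

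The other members did not pass the limma test in WT cells after amanitin. Wwtr1 changed by 0.10 on the log2 scale (95% interval -0.04 to 0.24) and by -0.05 without size factors. Tead1 changed by -0.07 (-0.20 to 0.07). Axl, a receptor tyrosine kinase, changed by 0.07 (-0.14 to 0.29), or -0.04 without size factors, and its libraries overlapped between times. Lats2 changed by -0.09 (-0.32 to 0.13). Ankrd1, a cardiac ankyrin-repeat protein widely used as a YAP target, changed by -0.32 (-0.71 to 0.07). It was counted with 15 to 48 reads per ribodepleted library.

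In TKO cells the same genes led after amanitin, given here without a test because the fall of Cyr61 in this contrast entered the choice of genes. Cyr61 was at 118.7 and 124.7 scaled TPM before treatment and 68.8 and 58.3 after 4 h, 52.2% of its untreated level, and had rank 34 among the 12467 tested genes when ordered from the largest fall. Ctgf was at 63.4 and 69.0 before treatment and 38.7 and 32.5 after 4 h (53.8%), and had rank 39. Amotl2 went from 75.3 and 74.2 to 60.9 and 54.8 (77.4%). Cyr61 and Ctgf were past 1.5-fold lower, where 0.898% of all tested genes were. The remaining 6 genes differed by between -0.18 (Lats2) and 0.12 (Yap1) on the log2 scale.

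The TKO 4 h replicates differed in how far these genes had fallen. In each of Cyr61, Ctgf and Amotl2, replicate 2 was lower than replicate 1. The log2 change of Cyr61 in TKO cells was -0.93 with both libraries, -1.05 without replicate 1 and -0.81 without replicate 2. For Ctgf these values were -0.88, -0.999 and -0.76, and for Amotl2 they were -0.37, -0.44 and -0.29.

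**Figure D1:**
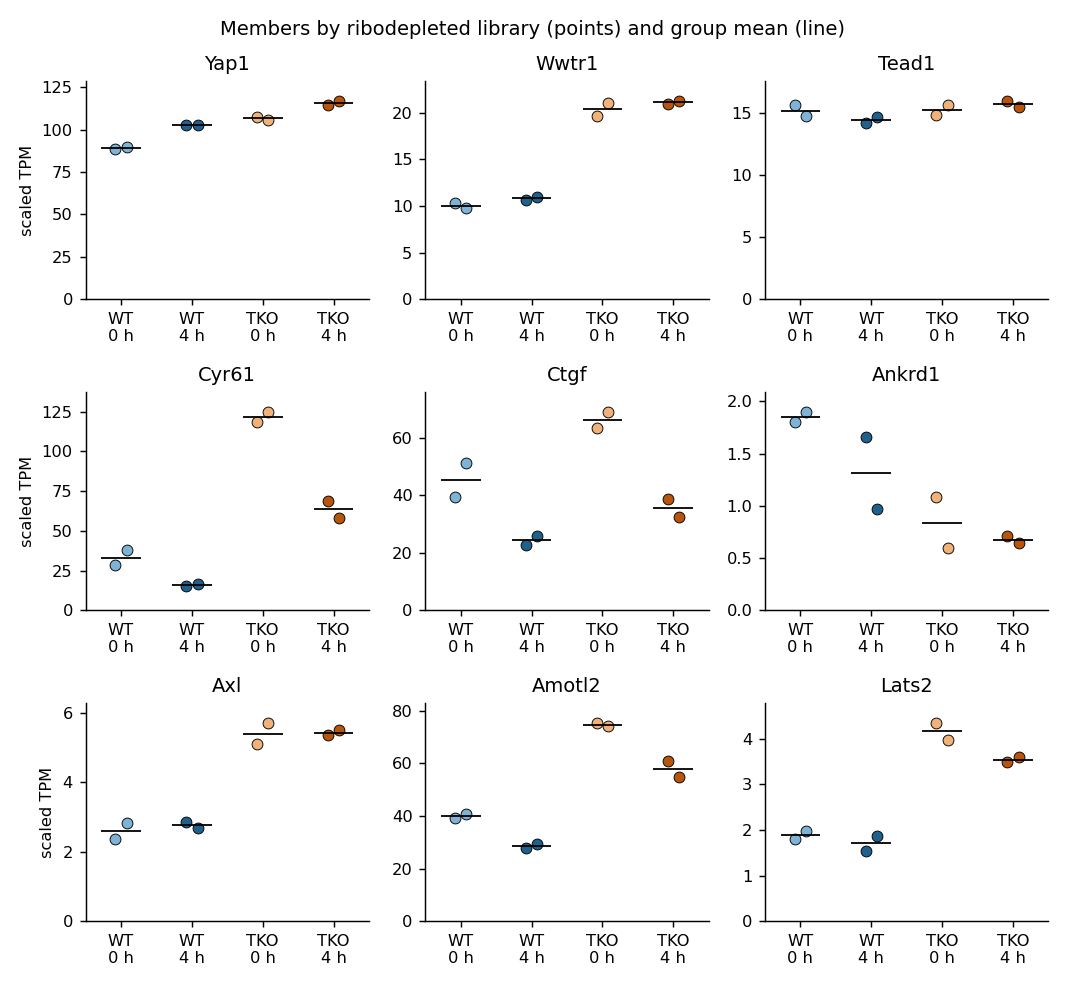
Scaled TPM (vertical axes, each from 0) of the 9 genes in the 4 ribodepleted groups, 1 point per library and a line at the mean of the 2 libraries. Cyr61 falls from 28.2 and 37.7 to 15.2 and 16.2 in WT and from 118.7 and 124.7 to 68.8 and 58.3 in TKO, whereas Tead1 lies between 14.2 and 15.9 in all 8 libraries.

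Whether the amanitin change differed between genotypes was tested by the interaction, the TKO change minus the WT change, for the 8 genes other than Cyr61. None of the 8 differed in the limma test (adjusted p from 0.695 to 0.984). Ankrd1, among the 8, passed the level filter through its WT libraries alone, so nothing is read from its result. Over all genes 0 of 12467 were called, by limma or by limma voom on recovered reads, and 938 (7.52%) had an unadjusted p under 0.05 by limma. For Ctgf the difference was -0.02 on the log2 scale with a 95% interval of -0.42 to 0.39, and for Amotl2 it was 0.10 (-0.09 to 0.29). For Lats2 it was -0.09 (-0.40 to 0.23) and for Yap1 -0.08 (-0.21 to 0.04). With 2 libraries per group these intervals leave room for differences of such sizes, and the miss of the threshold does not show that the genotypes responded alike. For Cyr61 the difference is a description, 0.08 with an SE of 0.17.

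The next comparison set TKO against WT cells at 0 h. In untreated TKO cells, Cyr61 was 3.69 times its WT level, Lats2 2.21 times, Axl 2.08 times, Wwtr1 2.03 times and Amotl2 1.87 times, all on the scaled TPM scale. Ankrd1 went the other way, to 45.3% of WT. Of the 9 genes, 5 were called higher and 1 lower, where 10.5% of all tested genes were called higher and 5.43% lower. The 1 lower gene, Ankrd1, passed the level filter through its WT libraries alone, so its values are given below as they stand and nothing is read from that count. Cyr61 is among the 5 higher genes, although its TKO values entered the choice of genes, so nothing is read from its call. The median log2 difference of the 9 genes was 0.83, and that of all tested genes was -0.02. The 9 include Cyr61 and Ankrd1, so nothing is read from the 0.83 either.

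Among the regulators, the TAZ gene Wwtr1 was at 10.3 and 9.75 scaled TPM in WT and at 19.7 and 21.0 in TKO, with no overlap, a log2 difference of 0.96 ± 0.06 (SE, n = 2 per group; limma adjusted p = 4.88e-06). Its relative Yap1, at 88.3 and 89.9 in the WT libraries and 107.7 and 105.5 in the TKO libraries, differed by 0.26 ± 0.04 (limma adjusted p = 0.000761), below the fold limit. Yap1 mRNA was thus the more abundant of the pair per length in both genotypes, and Wwtr1 the one with the larger ratio between them. Tead1 was at 15.6 and 14.7 in WT and at 14.8 and 15.6 in TKO, with overlapping libraries and a difference of 0.00 (95% interval -0.13 to 0.14). Libraries without overlap were common at 0 h, with TKO wholly above WT in 39.1% of all tested genes and wholly below in 42.6%.

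Of the secreted targets, Cyr61 differed by 1.87 ± 0.12 on the log2 scale, given without a p-value. Its libraries did not overlap, at 118.7 and 124.7 scaled TPM in TKO and at 28.2 and 37.7 in WT. Ctgf was at 39.5 and 51.4 in WT and at 63.4 and 69.0 in TKO. Its difference of 0.54 ± 0.13 passed the limma test (adjusted p = 0.00607) but not the fold limit, and it was 0.35 without WT 0 h replicate 1 and 0.72 without WT 0 h replicate 2. Ctgf was called higher without size factors (0.64) and with quantile normalisation (0.61), which made 7 genes called in each. Of all 12467 tested genes, 1596 were called higher and 518 lower without size factors, and 1086 and 840 with quantile normalisation. The 7 include Cyr61 and Ankrd1, so nothing is read from these counts. At 0 h, Ctgf had the higher scaled TPM of the pair in both WT libraries and Cyr61 in both TKO libraries.

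The feedback targets were higher in TKO as well. Amotl2 was at 39.4 and 40.8 scaled TPM in WT and at 75.3 and 74.2 in TKO (0.88 ± 0.06; limma adjusted p = 6.59e-06). Lats2, the kinase that phosphorylates YAP and TAZ, was at 1.80 and 1.97 in WT and at 4.34 and 3.97 in TKO (0.84 ± 0.10; limma adjusted p = 0.000144). Its exons overlap those of Xpo4, so this level is uncertain.

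Axl was at 2.37 and 2.81 scaled TPM in WT and at 5.09 and 5.70 in TKO (0.83 ± 0.09; limma adjusted p = 0.000116). Ankrd1 was at 1.81 and 1.90 in WT and at 1.09 and 0.592 in TKO, which are 46 and 48 reads against 31 and 15. The call of Ankrd1 counted above rested on single libraries. Its difference of -0.65 ± 0.17 is given without a p-value, since it passed the level filter through its WT libraries alone. Without TKO 0 h replicate 2 it was -0.45, and without WT 0 h replicate 2 it was -0.63. Lats2 and Axl are also low genes, and with a pseudocount of 5 TPM in place of 1 their differences were 0.41 and 0.45, under the fold limit.

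At 4 h, the same 5 genes were called higher in TKO and 0 lower, where 11% of all tested genes were called higher and 5.82% lower. Over all genes these were 1375 higher and 725 lower, against 1927 and 449 without size factors, which put the all-gene median at 0.14, and 1047 and 872 with quantile normalisation. Cyr61, again without a p-value, was 4.05 times its WT level (log2 difference 1.95 ± 0.12), Amotl2 2.02 times (0.99 ± 0.06) and Lats2 2.08 times (0.75 ± 0.10). Wwtr1 and Axl were both 1.95 times WT, with log2 differences of 0.91 ± 0.06 and 0.77 ± 0.09. Ctgf differed by 0.53 ± 0.13 (limma adjusted p = 0.00643) and Ankrd1 by -0.45 ± 0.17, both under the fold limit. These limits were crossed under other settings. Ctgf was 0.68 without size factors and called. Lats2 was 0.57 with quantile normalisation and no longer called. Ankrd1 was called lower, at -0.64 with quantile normalisation and -0.89 with limma voom. Ankrd1 passed the level filter through its WT libraries alone, so nothing is read from these calls and no p-value is given. Tead1 differed by 0.11 (95% interval -0.02 to 0.25). The difference between the 4 h and 0 h genotype contrasts is the same quantity as the interaction given above.

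**Figure D2:**
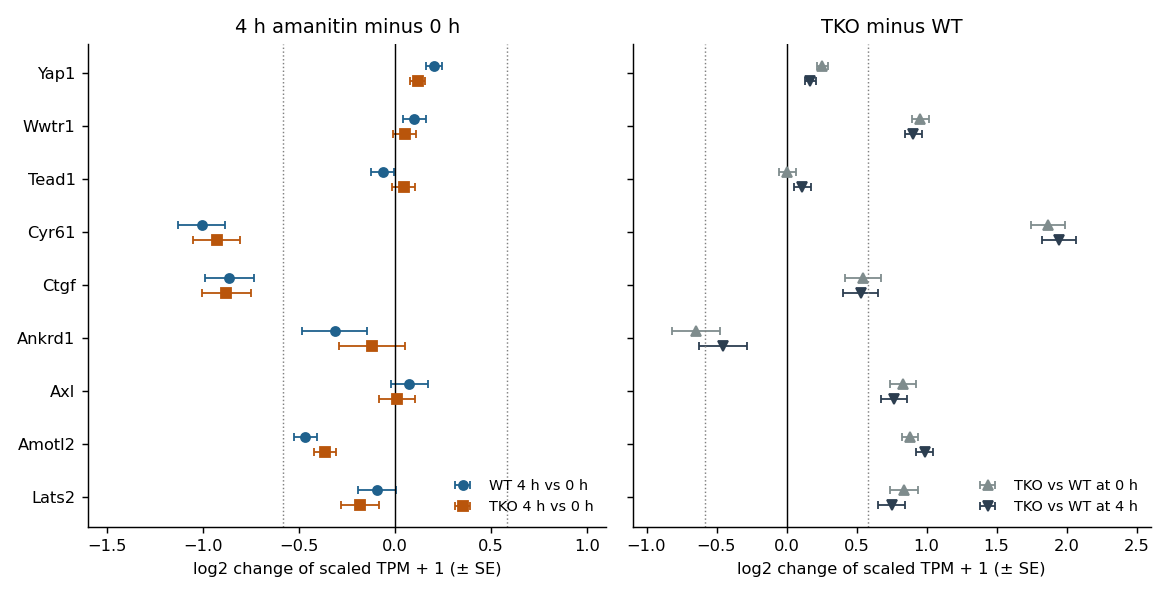
Log2 change of scaled TPM + 1 (horizontal axes) of each gene, with SE from the limma fit, after amanitin in WT and TKO (left) and between genotypes at 0 h and 4 h (right). Dotted lines mark 1.5-fold. Cyr61 and Ctgf lie beyond the line on the left in both genotypes (-1.01 and -0.86 in WT), and Cyr61 stands farthest out on the right at 1.87 and 1.95.

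Ordered by level over the ribodepleted groups, Cyr61 was highest in TKO 0 h, then TKO 4 h, WT 0 h and WT 4 h, with no overlap between neighbours. The Cyr61 share in the treated TKO libraries (68.8 and 58.3 scaled TPM) was thus above that in the untreated WT libraries (28.2 and 37.7). Scaled TPM is a share, so amounts per cell cannot be compared across the treatment. Amotl2 had the same order, also without overlap. For Ctgf, TKO 0 h was highest and WT 4 h lowest, while WT 0 h (39.5 and 51.4) and TKO 4 h (38.7 and 32.5) were next to each other without overlap. For Wwtr1, Axl and Lats2, every TKO library lay above every WT library at either time. Over all tested genes, TKO libraries lay wholly above WT in 39.1% and wholly below in 42.6% at 0 h. At 4 h these shares were 38.4% and 39.9%. Each covers its own time only, and the share of all genes with such an order over all groups was not computed. Nothing is read from these orders, and the TKO values of Cyr61 entered the choice of genes. The 2 WT groups overlapped in Axl and Lats2, and the 2 TKO groups in Wwtr1 and Axl.

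Cyr61 and Amotl2 varied together over the 8 ribodepleted libraries (Pearson r = 0.995 of log2(scaled TPM + 1)), closer than Cyr61 and Ctgf (0.849). These values describe 8 libraries of 4 groups that share the genotype and treatment steps, and Yap1, for comparison, had r = 0.429 with Cyr61 and -0.088 with Ctgf. The tested genes whose pattern was most like that of Cyr61 were Id3 (r = 0.998), an inhibitor of basic helix-loop-helix factors, Shb (0.995) and Lrig3 (0.995). For Amotl2 they were Bcar3 (0.998), Tmem185b (0.998) and Shb (0.998), and for Ctgf Iqcc (0.982), Trib1 (0.981) and Dusp6 (0.980), a phosphatase that acts on ERK. For Wwtr1 they were Igf1r, Tmem164 and Camk2b (all 0.999), for Axl Clic1 (0.997), Cpne2 (0.997) and Abcg2 (0.996), and for Lats2 Grik5 (0.996), Btg2 (0.995) and Tnfrsf12a (0.995). Yap1 was closest to Gpr125 (0.997), Ctnnal1 (0.997) and Cnp (0.995), Tead1 to Ankrd17 (0.968), Cpt1a (0.944) and Pigyl (0.924), and Ankrd1 to Mir1949 (0.971), Cep63 (0.962) and Prr22 (0.961).

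Other genes of the pathway were read from lists. Of 16 further genes commonly used as YAP/TAZ targets, 13 were tested, and at 0 h 6 were called higher in TKO and 1 lower, beside 10.5% and 5.43% of all tested genes. Their median log2 difference was 0.36 against -0.02 over all genes. F3, the gene of tissue factor, rose from 9.22 ± 0.91 (SD, n = 2) scaled TPM in WT to 34.9 ± 1.3 in TKO (1.82 ± 0.08; limma adjusted p = 6.87e-07). Igfbp3, which binds insulin-like growth factors, differed by 1.47, Ptpn14, a phosphatase that binds YAP, by 1.34, Crim1 by 0.95 and Gadd45a by 0.82. Tgfb2 was also called higher (0.68), and Nt5e was the one called lower (-0.65). At 4 h, 5 of the 13 were called higher and 1 lower, led by F3 (2.07), where the shares over all genes were 11% and 5.82%.

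The upstream regulators included genes that act against YAP. Of 21 listed, 19 were tested and 5 were called higher in TKO at 0 h and 0 lower (10.5% and 5.43% over all genes), with a median of 0.26. Amot, the founding angiomotin gene, differed by 1.61 ± 0.07 (from 3.42 ± 0.06 in WT to 12.5 ± 0.06 scaled TPM in TKO, SD over 2 libraries; limma adjusted p = 8.34e-07). Wwc2, of the KIBRA family, differed by 1.15, Amotl1 by 0.96, Mob1a, the LATS cofactor, by 0.84 and Stk3, which encodes MST2, by 0.62. With Amotl2, all 3 angiomotin-family genes were thus called higher. At 4 h, 6 of the 19 were higher, these 5 and Frmd6 (0.59), where 11% of all tested genes were.

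Among the other TEAD factors and Vestigial-like cofactors, 5 of 7 were tested, with a median of 0.41, and 1 was called at 0 h and 2 at 4 h, too few to set against the all-gene shares of 10.5% and 11%. Vgll3, a cofactor that binds TEADs in place of YAP, was called higher at 0 h (1.23 ± 0.09; limma adjusted p = 9.56e-06), and at 4 h Vgll3 (1.37) and Tead3 (0.72) were. Of the other 4 CCN family genes, only Wisp1 was tested, and it differed by -0.19 at 0 h (limma adjusted p = 0.161). At 4 h it differed by -0.29 (limma adjusted p = 0.0446), under the fold limit.

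SRF and actin genes, which often respond to the same mechanical cues, were all tested (11 of 11). In TKO at 0 h, 4 were called higher and 1 lower, where 10.5% and 5.43% of all tested genes were. The higher genes were the calponin gene Cnn1 (1.67), the focal adhesion gene Zyx (1.31), Tagln (1.20) and the tropomyosin gene Tpm1 (0.92). Acta2, the smooth muscle actin gene, was lower (-1.004), and the median was 0.55. After amanitin in WT, 0 genes of the 5 lists were called. The nearest to the fold limit among the other targets were F3 (-0.50; limma adjusted p = 0.00582), Gadd45a (-0.46; 0.00603) and Nuak2 (-0.46; 0.0136). The median of the other targets was -0.04 and that of the SRF and actin genes 0.26, against 0.03 over all genes.

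**Figure D3:**
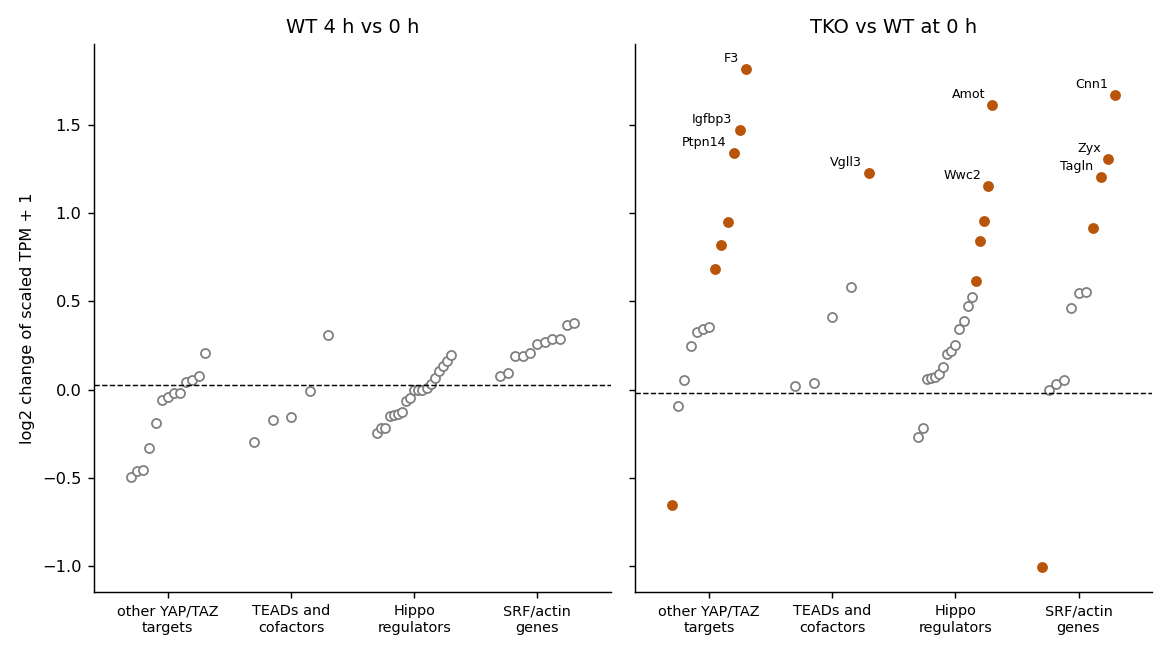
Log2 change of scaled TPM + 1 (vertical axis) of each tested gene of 4 pathway lists, sorted within a list, for amanitin in WT (left) and TKO against WT at 0 h (right). Filled points were called by limma, the dashed line is the median of all tested genes, and 0 points are filled on the left.

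Markers of other cell types moved with genotype beside these genes. The summed level of 6 trophectoderm markers (Cdx2, Elf5, Eomes, Gata3, Hand1 and Ascl2) was 4.92 to 5.14 TPM, as deposited, in WT 0 h and 18.6 to 19.6 in TKO 0 h, with Ascl2 and Hand1 called higher among 3 tested and none at 0 in every library of a group. Ascl2 alone averaged 10.6 TPM in TKO 0 h, and the same sum was 12.1 to 12.5 in the WT polyA libraries. The sum of 8 fibroblast markers was 9.27 to 9.45 in WT 0 h, where Lum was at 0, and 13.2 to 13.9 in TKO 0 h, with Col1a2 called higher among 4 tested. The sum of 6 primitive endoderm markers was 3.61 to 3.74 in WT 0 h, where Afp and Ttr were at 0, and 1.88 to 2.27 in TKO 0 h, where Ttr was at 0, with Gata4 called lower as the 1 tested. Of the 6 ESC markers, all tested, Esrrb, Klf4 and Zfp42 were called lower in TKO at 0 h, whereas Pou5f1, Sox2 and Nanog were not called. For comparison, higher calls at that time made up 10.5% of all tested genes and lower calls 5.43%. The marker lists hold too few tested genes to be set against those shares. The part of the marker shifts in the genotype differences above was not tested. In bulk RNA, fewer cells of a type and less RNA per cell cannot be told apart.

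The polyA libraries of WT cells gave a further reading of the same genes, in a separate fit of 3 polyA against 2 ribodepleted 0 h libraries with 12481 genes tested. RNA selection and sequencing experiment differ together between them and cannot be told apart. Of the 8 genes tested (Ankrd1, with 17 to 35 reads in the polyA libraries, fell under the level filter), 5 were lower with polyA and 1 higher, where 16.4% of all tested genes were called lower and 18.7% higher. Cyr61 was at 13.1, 14.1 and 13.7 scaled TPM with polyA against 29.8 and 39.8 in this fit, and Ctgf at 23.7, 26.0 and 25.5 against 41.7 and 54.2. The log2 differences were -1.28 ± 0.10 for Cyr61 (limma adjusted p = 5.07e-06) and -0.90 ± 0.10 for Ctgf (3.11e-05).

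Amotl2 was 57.9% of its ribodepleted level in polyA RNA (-0.76 ± 0.04) and passed the limma test with non-overlapping libraries. Of all tested genes, 43.9% lay wholly lower with polyA and 43.1% wholly higher. Lats2 was at 35.1% (-0.82 ± 0.09) and Axl at 33.3% (-0.97 ± 0.09), but these low genes, with polyA means of 0.699 and 0.912 scaled TPM, passed the level filter only through the ribodepleted libraries (1.99 and 2.74), so the count of 5 is not read further. With a pseudocount of 5 TPM, Lats2 was -0.29 and Axl -0.39, under the fold limit, which left 4 genes called (Amotl2, Ctgf, Cyr61 and Tead1), and the same 4 were called among genes with a mean over 5. Of all 12481 tested genes, 1500 were called higher and 1358 lower with that pseudocount. With a mean over 5 these were 1776 and 1457 of 9812. Tead1 was the exception in direction, at 35.4, 35.5 and 32.6 with polyA against 16.5 and 15.5 (1.06 ± 0.05; limma adjusted p = 2.97e-07). Yap1 (-0.01, 95% interval -0.09 to 0.07) and Wwtr1 (0.09, -0.03 to 0.21) did not pass. The sign of the Yap1 value changed with the scaling, at 0.09 without size factors and 0.06 with quantile normalisation.

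**Figure D4:**
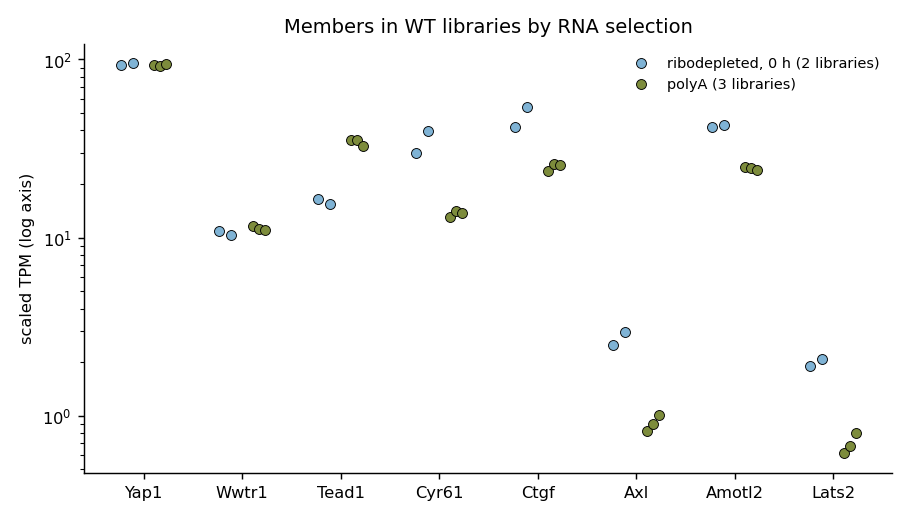
Scaled TPM (log axis) of the 8 tested genes in WT cells, with 2 ribodepleted 0 h libraries (blue) and 3 polyA libraries (green). Cyr61 lies at 13.1 to 14.1 with polyA and at 29.8 and 39.8 with ribodepletion, Tead1 shows the opposite order, and Yap1 and Wwtr1 nearly coincide.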

How the data were processed

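RNA-seq of 11 mouse ESC libraries was analysed. Sample titles gave each library's group (5 in all) and replicate number. The authors deposited 1 TPM value per gene and library, computed from HTSeq counts. Per their methods, ribosomal and transfer RNA reads were filtered out (Bowtie2), adapters were trimmed (Trimmomatic), and STAR aligned the rest to mm9. Tool versions and the strand setting are not given in the sources used here. TPM values lay on steps of whole reads. These reads were recovered for 100.0% of the expressed genes within 0.01 read and used for depth, for comparing replicates and for limma voom. Precision was limited by the 2 libraries per group.

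TPM was divided by median-of-ratios size factors. The limma fit (version 3.58.1, R 4.3.3, eBayes with trend, two-sided, 1 coefficient per group) took log2 of scaled TPM plus a pseudocount of 1, for genes with a mean over 1. The study's own test, which takes raw counts, was not run on the recovered reads. Called genes had a Benjamini-Hochberg adjusted p under 0.05 and more than 1.5-fold change on that scale, on which changes of low genes come out too small. The script was tested on simulated data. Members, lists and tests were chosen with earlier results of these data known. Named genes were the members, every called list gene or the 5 with the largest change, the 3 genes most like each member, and Tet1, Tet2 and Tet3. Further list genes (Tgfb2, and the WT amanitin values of F3, Gadd45a and Nuak2) were named after their values were seen. Promoter sequences came from RefSeq (GRCm38.p6), searched over 250 bases, and gene positions from GENCODE vM1. Alternatives were no or quantile scaling, pseudocounts of 0.1 and 5, no filter or a mean over 5, the replicate number as a block, calls at any fold, a variance without trend, fits of the compared groups alone, voom, and leaving out each library.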

Additional observations from a re-analysis of the deposited data

How the results depend on the processing

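The falls of Cyr61 and Ctgf in WT and the higher Cyr61, Amotl2 and Wwtr1 in TKO at both times were called under every alternative and without any 1 library. With a pseudocount of 5 TPM, or with genes of a mean over 5 only, 3 members were called between genotypes at 0 h and at 4 h (Amotl2, Cyr61 and Wwtr1), because low genes shrink or leave the test. The TKO values of Cyr61 entered the choice of genes, so nothing is read from its calls between genotypes. With no fold threshold, 4 were called in WT after amanitin (37.7% of all genes) and 8 between genotypes at 4 h (59.4%). Leaving out 1 library gave 5 to 7 members called between genotypes at each time, 6 to 7 for polyA, 2 in WT after amanitin and 0 in the interaction.

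Signs turned for changes that had not passed the test and for some values given without one, and the cause was not tested. In TKO after amanitin, without size factors, Axl was -0.0748, Tead1 -0.048 and Wwtr1 -0.0435, Axl was -0.0031 in a fit of the 2 groups alone, and without TKO 0 h replicate 1 Ankrd1 was 0.0737 and Axl -0.0582 (Axl -0.0085 without TKO 4 h replicate 2). The Cyr61 interaction was -0.0263 with quantile normalisation, -0.0268 with a pseudocount of 5 TPM and -0.1231 to 0.2828 leaving out 1 library. Without size factors the log2 change in WT was -0.0413 for Axl and -0.0459 for Wwtr1, the interaction was 0.041 for Ctgf and 0.0025 for Wwtr1, and Yap1 with polyA was 0.092. With quantile normalisation Tead1 was 0.001 in WT after amanitin and -0.0406 between genotypes at 0 h, and Yap1 with polyA was 0.0615. With no filter these were -0.028 for Tead1 and 0.0103 for Yap1, and with a mean over 5 Yap1 was 0.008. Leaving out 1 library, the interaction ranged from -0.027 to 0.4045 for Ankrd1, -0.155 to 0.0245 for Axl, -0.2005 to 0.1712 for Ctgf and -0.0865 to 0.0032 for Wwtr1, the genotype difference of Tead1 at 0 h from -0.0425 to 0.0391, Axl in WT after amanitin from -0.0156 to 0.1625, and Yap1 with polyA from -0.0331 to 0.0073.

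The replicate numbers share only a number: deviations of same-numbered libraries correlated at -0.0443 to 0.119 between groups. With the replicate block, 2 members were called in WT after amanitin, 6 and 5 between genotypes at 0 h and 4 h, 0 in the interaction and 6 for polyA, the same counts as without it. Over all genes, the block gave 13 higher and 260 lower in WT after amanitin, 1312 and 678 at 0 h, and 1373 and 731 at 4 h. For polyA these were 2326 and 2032, and 0 were called in the interaction. The genotype counts include Cyr61 and the polyA count Lats2 and Axl, so they are not read further. Ankrd1 had the fewest reads, 15 to 48 per ribodepleted library. Over all genes, 251 were called lower in WT after amanitin, against 585 without size factors, 382 with voom and 148 with a pseudocount of 5 TPM, and 1309 were called higher in TKO at 0 h, against 550 with a pseudocount of 5 TPM and 757 with a mean over 5.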
